A study of Saccharomyces cerevisiae with 9 samples.

Results

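Yeast whose histone H3 carries leucine in place of lysine at residue K42 (K42L) was set against yeast with wild-type H3 for every measured transcript. The comparison takes 5 of the 9 arrays of the series, those titled K42L (n = 2) and wild-type (n = 3), and all 5449 Saccharomyces cerevisiae genes that the arrays measure, dim ones included. All cultures were of strain JPY12 and expressed histone H3 from a plasmid, the wild-type cultures included; the labels name it as pEMH7 for the mutants. They grew in rich medium (YPD) into log phase. Alanine (K42A, n = 2) and glutamine (K42Q, n = 2) replaced the same lysine on the other arrays, which lend their estimate of the spread. The design text calls the mutant arrays biological replicates and speaks of 3 reference strains with the wild-type protein, and the sources used here do not say whether they came from separate transformants. In these populations a change in some cells and a smaller change in all cells cannot be told apart.

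Histone H3 is a core protein of the nucleosome, the spool of protein around which DNA is wound. Its lysine K42 sits close to the DNA where the double helix enters and leaves the nucleosome, and the series title describes it as a methylated residue through which transcription is gated. Leucine is uncharged, of similar bulk to the aliphatic part of lysine, and cannot be methylated at the side chain. Glutamine is also uncharged, but polar, and is widely used to imitate acetylated lysine.

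The signals are MAS5 intensities, each array scaled by the depositors to a common trimmed mean of 150.06 to 150.08. Probe sets for a second yeast species on the same arrays served as the background, and their 95th percentile is called the background level of an array here. It was 5.0 and 4.9 on the K42L arrays and 5.07 on wild-type replicate 1, but 9.6 and 8.8 on wild-type replicates 2 and 3. The mean spike-in signal followed the same division, with 469.9 and 449.5 on the K42L arrays and 473.9, 264.8 and 254.1 on wild-type replicates 1, 2 and 3. The labels name no batch, and what the division stands for was not tested. On all 5 arrays 5277 genes lay above the background level, and 62 genes lay above it on none.

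Wild-type replicate 1 was as unlike its fellow wild-type arrays as K42L was. The median absolute log2 difference between arrays was 0.0789 between the K42L arrays, 0.0986 and 0.119 between them and wild-type replicate 1, and 0.170 to 0.188 between them and wild-type replicates 2 and 3. Between wild-type replicate 1 and the other wild-type arrays it was 0.193 and 0.184, against 0.0669 between wild-type replicates 2 and 3. Differences from wild type were therefore computed in 2 forms. Where a single value is given and no form is named, it is that against all 3 wild-type arrays. The first form sets K42L against all 3 wild-type arrays, and the second, with the background level as a block in the model, equals K42L minus wild-type replicate 1 alone. In the second form wild-type replicate 1 is fitted exactly and adds nothing to the spread. The SE and adjusted p of that form therefore do not measure how wild-type cultures vary. Wild-type values below are always in the order replicate 1, 2, 3. A gene is called where limma gave it an adjusted p (Benjamini-Hochberg, over all 5449 genes) below 0.05.

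Few genes were called between K42L and wild type. Against all 3 wild-type arrays 46 genes (0.844%) were called, 25 higher in K42L (0.459%) and 21 lower (0.385%). Of these, 9 were at least 2-fold higher. The fit put 5 at least 2-fold lower, of which GAT3 and YDL159W-A were at background on most arrays and have no measured fold. The smallest called difference was 0.39 on the log2 scale. Against wild-type replicate 1, with the block, 43 genes (0.789%) were called, 30 higher (0.551%) and 13 lower (0.239%). With median centring that split was 34 higher and 31 lower. In both forms 23 genes (0.422%) were called, 16 higher and 7 lower. An unadjusted p under 0.05 was reached by 978 genes (17.9%) in the first form and 725 (13.3%) in the second. The median log2 difference of all genes was 0.02 in either form.

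These calls rest on few arrays. With K42L replicate 1 left out, 2 genes were called (TKL2 higher and BNA1 lower), and 0 were called by limma without K42L replicate 2, where 458 genes had an unadjusted p under 0.05. Fitted on the K42L and wild-type arrays alone, the model called BNA1 and KDX1, both lower. Leaving out wild-type replicate 1 turned the count to 870 higher and 807 lower. The other 2 wild-type arrays were both of the higher background level and the K42L arrays of the lower. In that setting a difference of K42L and a difference between the background levels cannot be told apart. Without wild-type replicate 2 the count was 17 higher and 3 lower, and without wild-type replicate 3 it was 10 and 3. All 46 called genes kept the sign of their difference in every setting in which they were tested.

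The increases included genes for single enzymes of redox and carbohydrate metabolism. GTT2 (YLL060C), for a glutathione S-transferase, had signals of 161 and 154 on the K42L arrays, against 76.0, 43.8 and 48.8 on the wild-type arrays. Both K42L arrays lay above all wild-type arrays. Its log2 difference was 1.53 ± 0.19 (SE, n = 2 against 3; adjusted p = 0.00846), and 1.05 ± 0.10 against wild-type replicate 1 (adjusted p = 0.00128). Of the 31 measured genes of oxidative stress and efflux it was the 1 called against all 3 wild-type arrays, and their median was 0.03, or -0.02 with the block. TKL2 (YBR117C), for the minor transketolase of the pentose phosphate pathway, had 65.1 and 73.3 in K42L, against 33.2, 35.0 and 32.5 in wild type. Wild type varied little here, and the difference was 1.04 ± 0.10 (adjusted p = 0.00237) and 1.06 ± 0.13 with the block (adjusted p = 0.00304). FMP46 (YKR049C), for a mitochondrial protein with a thioredoxin-like fold, had 148.5 and 142.5 in K42L, against 85.9, 73.7 and 74.5 in wild type, a difference of 0.90 ± 0.09 and, with the block, 0.76 ± 0.09 (adjusted p = 0.00237 and 0.00255).

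A pair of meiotic genes was called higher, at low signals, and a spore wall gene lower. ZIP1 (YDR285W), a component of the synaptonemal complex that joins paired chromosomes, had 25.9 and 27.7 in K42L, against 13.2, 9.7 and 8.5 in wild type. It rose by 1.38 ± 0.20 (adjusted p = 0.0154) and by 1.02 ± 0.20 with the block (adjusted p = 0.0417), and on wild-type replicate 3 it was under the background level. SPO22 (YIL073C), a meiosis-specific gene, had 20.7 and 21 in K42L, against 9.1, 12 and 10.1 in wild type, with differences of 1.01 ± 0.17 and 1.20 ± 0.21 (adjusted p = 0.027 and 0.0256). CDA1 (YLR307W) encodes a chitin deacetylase of the spore wall, and its signals were 8.9 and 8.4 in K42L, against 23.7, 24.5 and 20 in wild type, and it fell by 1.39 ± 0.17 and by 1.45 ± 0.22 with the block (adjusted p = 0.00797 and 0.0139). These 3 were the called members of 56 measured sporulation and meiosis genes, 2 higher and 1 lower, beside 0.459% and 0.385% of all genes. The median log2 difference over the 56 was 0.07 and, with the block, 0.04.

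Other genes called higher in both forms were regulators, transporters and mitochondrial or metabolic proteins. HMS2 (YJR147W), which resembles heat shock transcription factors, had 95.1 and 88.0 in K42L, against 43.1, 28.7 and 37.2 in wild type, and rose by 1.35 ± 0.16 (adjusted p = 0.00797), or 1.09 ± 0.17 with the block (adjusted p = 0.0139). ECM10 (YEL030W), for an Hsp70 of the mitochondrial matrix, had 64.6 and 71.2 in K42L, against 36.7, 29.7 and 26.4 in wild type, a rise of 1.15 ± 0.14 or 0.89 ± 0.13. FET4 (YMR319C), the low-affinity iron transporter of the plasma membrane, had 125.9 and 157 in K42L, against 67.8, 62.2 and 52.4 in wild type, a rise of 1.22 ± 0.17 or 1.05 ± 0.19 (adjusted p = 0.0154 and 0.0329). The K42L arrays differed more for FET4 than for the other genes of this group, yet both lay above every wild-type array. DAL1 (YIR027C), for allantoinase of the allantoin pathway for nitrogen, had 33.4 and 38.8 in K42L, against 20.8, 21.2 and 17.9 in wild type, and rose by 0.85 ± 0.12 or 0.79 ± 0.16. It was the called member of 29 measured genes repressed by good nitrogen sources, whose median was -0.01, or 0.14 with the block. The largest increase was that of YNL033W, an uncharacterised gene read by a probe set shared with similar sequences, at 36.7 and 37.8 in K42L, against 14.7, 9.6 and 14.7 in wild type (1.55 ± 0.19 and 1.34 ± 0.22; adjusted p = 0.00797 and 0.0218).

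Brighter genes rose by less. URA4 (YLR420W), for the dihydroorotase of uracil synthesis, had 793 and 847 in K42L, against 592, 519 and 535 in wild type. It rose by 0.58 ± 0.07 (adjusted p = 0.0101) and by 0.47 ± 0.07 with the block (adjusted p = 0.0139). APE1 (YKL103C), a vacuolar aminopeptidase, had 257.9 and 264.5 in K42L, against 175.5, 183.6 and 168.5 in wild type, and rose by 0.57 ± 0.08 or 0.57 ± 0.10. BUD20 (YLR074C), which takes part in export of the large ribosomal subunit, had 480.3 and 483.9 in K42L, against 368.5, 336.3 and 319.8 in wild type, a rise of 0.50 (adjusted p = 0.0189) or 0.39 ± 0.07. YGR201C, PAD1 (for phenylacrylic acid decarboxylase) and YHL042W complete the 16, with differences of 0.59, 0.59 and 0.79 and with the block of 0.70, 0.65 and 0.85. BUD20 and these last genes lie outside the rule for naming and are given to complete the set. Genes named below without a call, and XRS2, PLB2, GLT1, RLM1, GAT3 and YDL159W-A, were likewise chosen after their values were seen.

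Called against all 3 wild-type arrays but not against replicate 1 were 9 further increases. RNP1 (YLL046C), for an RNA-binding protein, had 12.8 and 14.1 in K42L, against 6.4, 6.4 and 6.5 in wild type, where it passed the background level on replicate 1 alone. Its difference was 1.06 ± 0.17 (adjusted p = 0.0258), or 1.07 ± 0.23 with the block (adjusted p = 0.0614). BIO2 (YGR286C), for biotin synthase, had 193.9 and 201.5 in K42L, against 136.5, 97.5 and 105.6 in wild type, with 0.82 ± 0.14 (adjusted p = 0.0296) and 0.53 ± 0.12 (adjusted p = 0.0614). The other 7, among them XRS2 of DNA break repair, the phospholipase B gene PLB2 and the glutamate synthase gene GLT1, differed by 0.41 to 0.77, and their block values were 0.32 to 0.71.

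**Figure D1:**
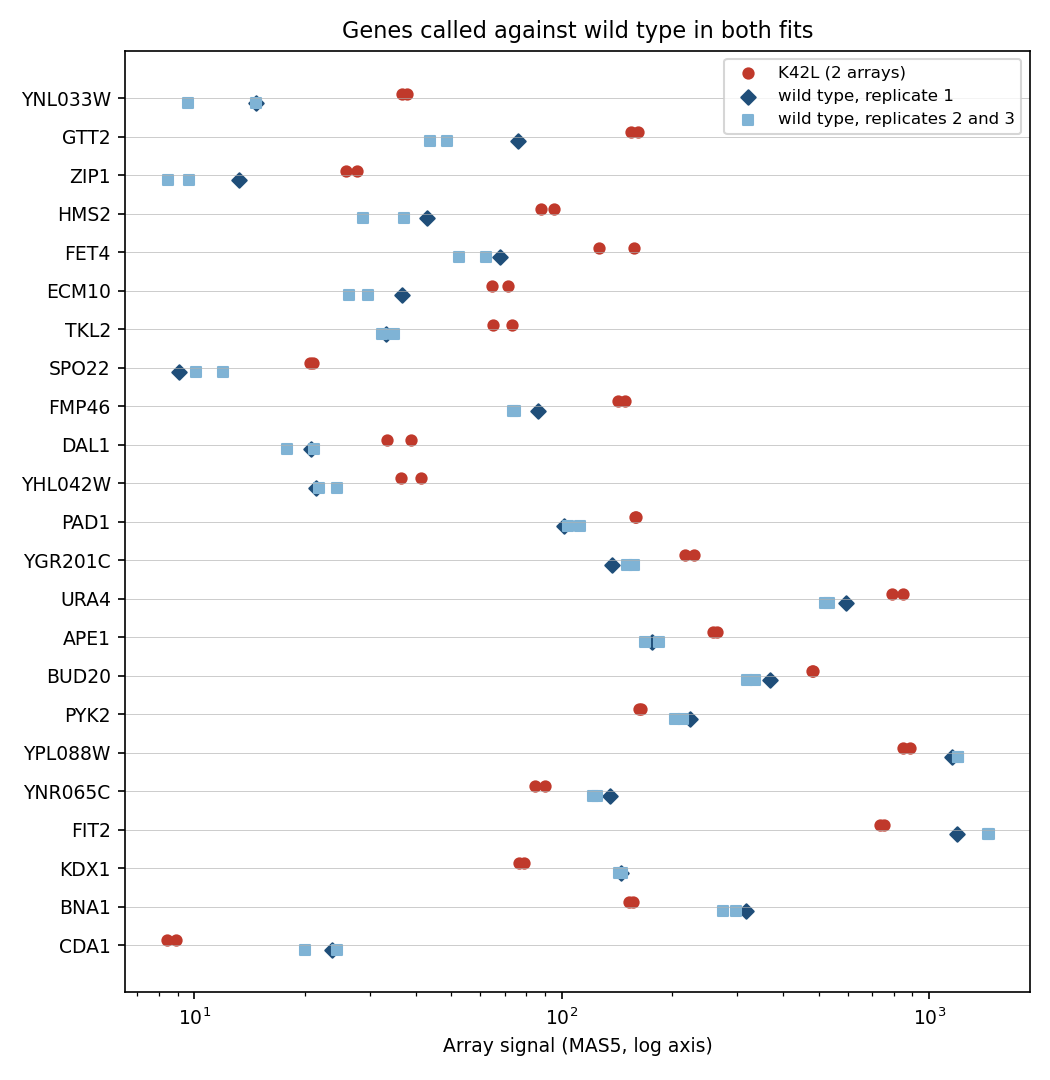
Signal (log axis) of the 23 genes called in both forms, with K42L arrays as red circles, wild-type replicate 1 as dark diamonds and wild-type replicates 2 and 3 as light squares. The upper 16 genes are higher in K42L and the lower 7 are lower, and in each row both K42L arrays lie outside the range of the 3 wild-type arrays.

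BNA1 gave the smallest adjusted p of the comparison. BNA1 (YJR025C) encodes the 3-hydroxyanthranilate dioxygenase of NAD synthesis from tryptophan, and its signals were 156 and 153 in K42L, against 317, 297 and 275 in wild type. It fell by 0.94 ± 0.08 (adjusted p = 0.00195) and by 1.04 ± 0.08 with the block (adjusted p = 0.000294). Among 12 measured genes of NAD synthesis it alone was called. BNA4, which acts earlier in the same pathway, had 228 and 238 in K42L, against 187, 117 and 103 in wild type (0.83, adjusted p = 0.107), and BNA2 and BNA5 had differences of -0.03 and -0.16. BNA1 also had negative block values of -0.44 in K42Q, against the same wild-type replicate 1, and of -0.81 in K42A, which the block sets against wild-type replicates 2 and 3.

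Genes for iron-holding proteins of the cell wall were lower in K42L. FIT2 (YOR382W), a mannoprotein that retains siderophore-bound iron at the wall, had 751 and 733 in K42L, against 1189, 1443 and 1451 in wild type. It fell by 0.87 ± 0.13 (adjusted p = 0.0189) and by 0.68 ± 0.13 with the block (adjusted p = 0.0442). FIT1 (YDR534C), of the same family, had 39.1 and 42.4 in K42L, against 71.0, 118.2 and 95.4 in wild type, and fell by 1.19 ± 0.21 (adjusted p = 0.0362), with a block value of -0.80 ± 0.20 (adjusted p = 0.102). These were the called members of 7 measured genes for siderophore transport and wall-held iron. The remaining 5 were FIT3 and the siderophore transporters SIT1, ARN1, ARN2 and ENB1, with differences of -0.28, -0.36, -0.06, -0.46 and -0.41 and adjusted p between 0.0869 and 0.834.

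For 6 of the 7, both K42L arrays lay below all 3 wild-type arrays, as they did for 14.0% of all genes, and ARN1 was the exception. The median over the 7 was -0.41, or -0.48 against wild-type replicate 1, beside 0.02 over all genes in either form. Over the scalings tried, and with either K42L array left out, that median stayed between -0.43 and -0.37. Neither FIT1 nor FIT2 was called with either K42L array left out, and FIT1 was not called under quantile scaling. Among 26 measured genes of reductive iron uptake and iron use FET4 was called, higher as given above, and the median of the 26 was -0.12. FET3 and FTR1, the high-affinity oxidase and permease, had differences of -0.27 and -0.15 (adjusted p = 0.2 and 0.48).

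ADH2, PYK2, GPP2, HSP12 and PBI2 were further decreases, from different pathways. ADH2 (YMR303C), the alcohol dehydrogenase used on ethanol, had 142.5 and 159 in K42L, against 212, 278.5 and 273 in wild type. It fell by 0.75 ± 0.13 (adjusted p = 0.0328), with a block value of -0.50 ± 0.11 (adjusted p = 0.0723). It was the 1 called member of 38 measured genes of glucose-repressed carbon use, whose median was -0.09 and, with the block, 0.00. PYK2 (YOR347C), a pyruvate kinase that glucose represses, had 163.8 and 162.7 in K42L, against 223.5, 214 and 203 in wild type, and fell by 0.39 ± 0.07 or, with the block, by 0.45 ± 0.08 (adjusted p = 0.0392 and 0.0286). GPP2 (YER062C), a glycerol phosphatase of the osmotic response, had 290.5 and 302.6 in K42L, against 390, 448.7 and 429.4 in wild type (-0.51 ± 0.09, adjusted p = 0.0392; block value -0.40, adjusted p = 0.108). These 3 were the called members of 26 measured genes of glycolysis and fermentation, where the bright glycolytic genes such as PGK1, TDH3 and ENO2 had differences of 0.03 to 0.11, and of -0.21 to -0.13 with the block.

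HSP12 (YFL014W), a membrane-associated stress protein, had 213 and 190 in K42L, against 317, 310 and 312 in wild type. It fell by 0.64 ± 0.11 (adjusted p = 0.0362), with a block value of -0.65 ± 0.14 (adjusted p = 0.0562). Alone among 53 measured genes of the general stress response it was called. The median of the 53 was -0.09, and -0.12 against wild-type replicate 1, and 20 of them had both K42L arrays below all wild-type arrays, while 3 had both above, beside 14.0% and 18.9% of all genes. Of 29 heat shock factor targets limma called 0, with 1 higher and 9 lower at an unadjusted p under 0.05, beside 9.93% and 8.02% of all genes. The median of these 29 was -0.06. PBI2 (YNL015W), an inhibitor of the vacuolar proteinase B, had 160.3 and 180.3 in K42L, against 223.7, 242.7 and 233.7 in wild type (-0.46 ± 0.08, adjusted p = 0.0391; block value -0.40, adjusted p = 0.1).

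At the cell surface, KDX1 (YKL161C), a pseudokinase gene switched on by the cell wall integrity pathway, had 76.4 and 79.1 in K42L, against 145.3, 142.8 and 145.4 in wild type. The wild-type arrays of both background levels nearly coincided, and KDX1 fell by 0.89 ± 0.09 (adjusted p = 0.00237) and by 0.90 ± 0.11 with the block (adjusted p = 0.00333). RLM1, the transcription factor of that pathway, had 185.7 and 199 in K42L, against 262.6, 202.6 and 204.1 in wild type. It differed by -0.20 from all 3 wild-type arrays, and was called with the block alone (-0.45 ± 0.09, adjusted p = 0.0461). So was PIR3 (YKL163W), for a wall glycoprotein, with 102.2 and 116.3 in K42L, against 190.1, 130.5 and 119.6 in wild type (-0.80 ± 0.12, adjusted p = 0.0101; -0.40 against all 3 wild-type arrays). BAG7 (YOR134W), for a GTPase-activating protein of Rho1, had 7.5 and 5.4 in K42L, against 22.6, 12.9 and 9.3 in wild type (block value -1.83 ± 0.31, adjusted p = 0.025).

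The 31 measured genes listed for cell wall integrity, a list that does not hold KDX1, had a median of -0.14, or -0.15 with the block. Against all 3 wild-type arrays limma called 0 of them, while 14 had an unadjusted p under 0.05, all lower, beside 437 of all 5449 genes (8.02%) lower at that level. One of the 14 is CHA1, a serine deaminase gene that the list holds although it is no gene of the wall (-0.60, adjusted p = 0.258; block value 0.06). With the block 3 were called, RLM1, PIR3 and BAG7. PRM5, a stress sensor-like membrane protein, had 400 and 375 in K42L, against 568, 536 and 517 in wild type (-0.48, adjusted p = 0.087). SLT2, the kinase of the pathway, had 611 and 596 in K42L, against 787, 653 and 703.5 in wild type (-0.24, adjusted p = 0.222).

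Transporters and genes of chromosome ends completed the decreases. PDR10 (YOR328W), an ABC transporter, had 304 and 335 in K42L, against 451, 502 and 474 in wild type, and fell by 0.58 ± 0.09 (adjusted p = 0.0258; block value -0.50, adjusted p = 0.0594). RTA1 (YGR213C), a membrane protein, had 198 and 193 in K42L, against 285, 356 and 357 in wild type (-0.76 ± 0.13, adjusted p = 0.0296; block value -0.55, adjusted p = 0.0734). PAU3, a seripauperin, had 80.4 and 77.4 in K42L, against 124, 148.6 and 139.9 in wild type (-0.80 ± 0.14, adjusted p = 0.0296; block value -0.65, adjusted p = 0.0848). Its probe set is shared with near-identical members of the family, so the gene cannot be told apart from them.

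DDI3, induced by DNA damage and nearly identical to DDI2, had 49.5 and 54.4 in K42L, against 79.9, 84.0 and 85.6 in wild type (-0.68 ± 0.11, adjusted p = 0.0269; block value -0.62, adjusted p = 0.0659). With MAG1, the alkyladenine glycosylase gene (-0.52 ± 0.09, adjusted p = 0.0391; block value -0.44, adjusted p = 0.108), it made up the called members of 23 measured genes for DNA damage and nucleotide reduction, and with the block neither was called. YNR065C, a homologue of the sorting receptor Vps10, and YPL088W, a putative aryl alcohol dehydrogenase, fell in both forms, by 0.54 ± 0.09 and 0.45 ± 0.07. ECM8, of unknown role, had 11.1 and 12.7 in K42L, against 22.0, 23.5 and 27.7 in wild type (-1.03 ± 0.19, adjusted p = 0.0391; block value -0.89, adjusted p = 0.122). YCL012C (-0.48; block value -0.45, adjusted p = 0.0541) completes the measured decreases and was named after its value was seen.

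For 2 called decreases the signals give no level. GAT3 was at 0.1 and 0.2 in K42L, against 2.2, 3.3 and 3.1 in wild type, and did not pass the background level on any of the 5 arrays, so no fold is given. YDL159W-A was not above background in K42L, at 1.6 and 0.5, and passed it on replicate 1 alone of the 3 wild-type arrays, which had 6.0, 8.7 and 8.7 (adjusted p = 0.0296 in the fit). No fold is given for it either.

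Some genes called against wild-type replicate 1 alone differed widely between the wild-type arrays. PHO84 (YML123C), the high-affinity phosphate transporter, had 70.8 and 65.6 in K42L, against 41.6, 755.5 and 851.6 in wild type. The K42L values lay inside the wild-type range, with a difference of -2.13 ± 1.03 from all 3 arrays (adjusted p = 0.306) and of 0.71 ± 0.11 with the block (adjusted p = 0.0122). PHO89 (YBR296C), the sodium-coupled phosphate transporter, had 24.2 and 13.4 in K42L, against 3.6, 35.2 and 30.7 in wild type, and replicate 1 was under its background level of 5.07. Its difference was 0.20 ± 0.80 (adjusted p = 0.91) and its block value 2.32 ± 0.30 (adjusted p = 0.00411), which takes 3.6 at face value. MET17 (YLR303W), the sulphhydrylase of homocysteine synthesis, had 75.6 and 78.0 in K42L, against 260, 138 and 132 in wild type. Both K42L arrays were below all wild-type arrays, with a difference of -1.13 ± 0.28 (adjusted p = 0.095) and a block value of -1.76 ± 0.20 (adjusted p = 0.00255).

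HPF1, for a wall mannoprotein, had 412.6 and 445.5 in K42L, against 221, 325.8 and 302.6 in wild type, and rose against replicate 1 by 0.96 ± 0.10 (adjusted p = 0.00128; 0.62 against all 3 wild-type arrays, adjusted p = 0.087). In all, 14 genes were called higher and 6 lower with the block alone. The 6 lower genes lay below every wild-type array, whereas 5 of the 14 higher genes lay inside the wild-type range. Among the higher ones, CYB2 (YML054C), for the lactate dehydrogenase of mitochondria, had 23.4 and 23.5 in K42L, against 10.2, 17.2 and 11.3 in wild type (1.20 ± 0.23, adjusted p = 0.0392; 0.90 against all 3 wild-type arrays, adjusted p = 0.0869). BOP2, of unknown role, had 32.1 and 34.4 in K42L, against 14.2, 23.4 and 17.0 in wild type (1.23 ± 0.23 with the block, adjusted p = 0.0329). YHL012W had 14.2 and 15.1 in K42L, against 5.7, 13.9 and 13.0 in wild type (1.36 ± 0.23 with the block, adjusted p = 0.025). CYT1, for cytochrome c1, was among the lower ones, with 52.9 and 48.9 in K42L, against 79.4, 65.8 and 66.8 in wild type (-0.64 ± 0.12 with the block, adjusted p = 0.0354). CLN3, the cyclin that starts the cell cycle in G1, was another, with 316 and 337 in K42L, against 444, 350 and 354 in wild type (-0.44 ± 0.08 with the block, adjusted p = 0.0256). Against all 3 wild-type arrays CYT1 and CLN3 differed by -0.47 and -0.22 (adjusted p = 0.087 and 0.298).

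Purine synthesis genes differed mainly among the wild-type arrays. ADE17 (YMR120C), which catalyses the last steps of the pathway, had 1363 and 1452 in K42L, against 1415, 137 and 121.5 in wild type. ADE2 had 662 and 774 in K42L, against 613, 129 and 119 in wild type. The K42L arrays stood with wild-type replicate 1, so that the difference of ADE17 was 2.30 ± 0.83 from all 3 arrays (adjusted p = 0.208) and -0.01 ± 0.12 with the block (adjusted p = 0.984).

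Over 19 purine genes limma called 0 in either form, with 10 higher and 0 lower at an unadjusted p under 0.05 in the first form and 2 higher in the second, beside 9.93% and 8.04% of all genes higher at that level. Their median was 0.26, against 0.03 with the block. CTR3, a copper transporter, had 641 and 672 in K42L, against 536, 59.1 and 77.8 in wild type (2.28 ± 0.79, adjusted p = 0.194; block value 0.29 ± 0.41). HIS4 of histidine synthesis had 1500 and 1548 in K42L, against 1536, 404 and 362.5 in wild type, and YRO2, a membrane protein, had 156 and 165, against 169, 35.7 and 35.3. In the other direction, DSE2, a daughter-cell wall glucanase, had 35.9 and 35.3 in K42L, against 38.6, 138 and 158 in wild type. DSE1 had 17.8 and 17.3 in K42L, against 14.8, 64.3 and 52.2, and the S-phase cyclin gene CLB6 had 119 and 136.5, against 92.1, 291 and 300. The ribosomal protein gene RPL41A had 140 and 164 in K42L, against 57.6, 376 and 354 in wild type. None of these was called in either form.

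**Figure D2:**
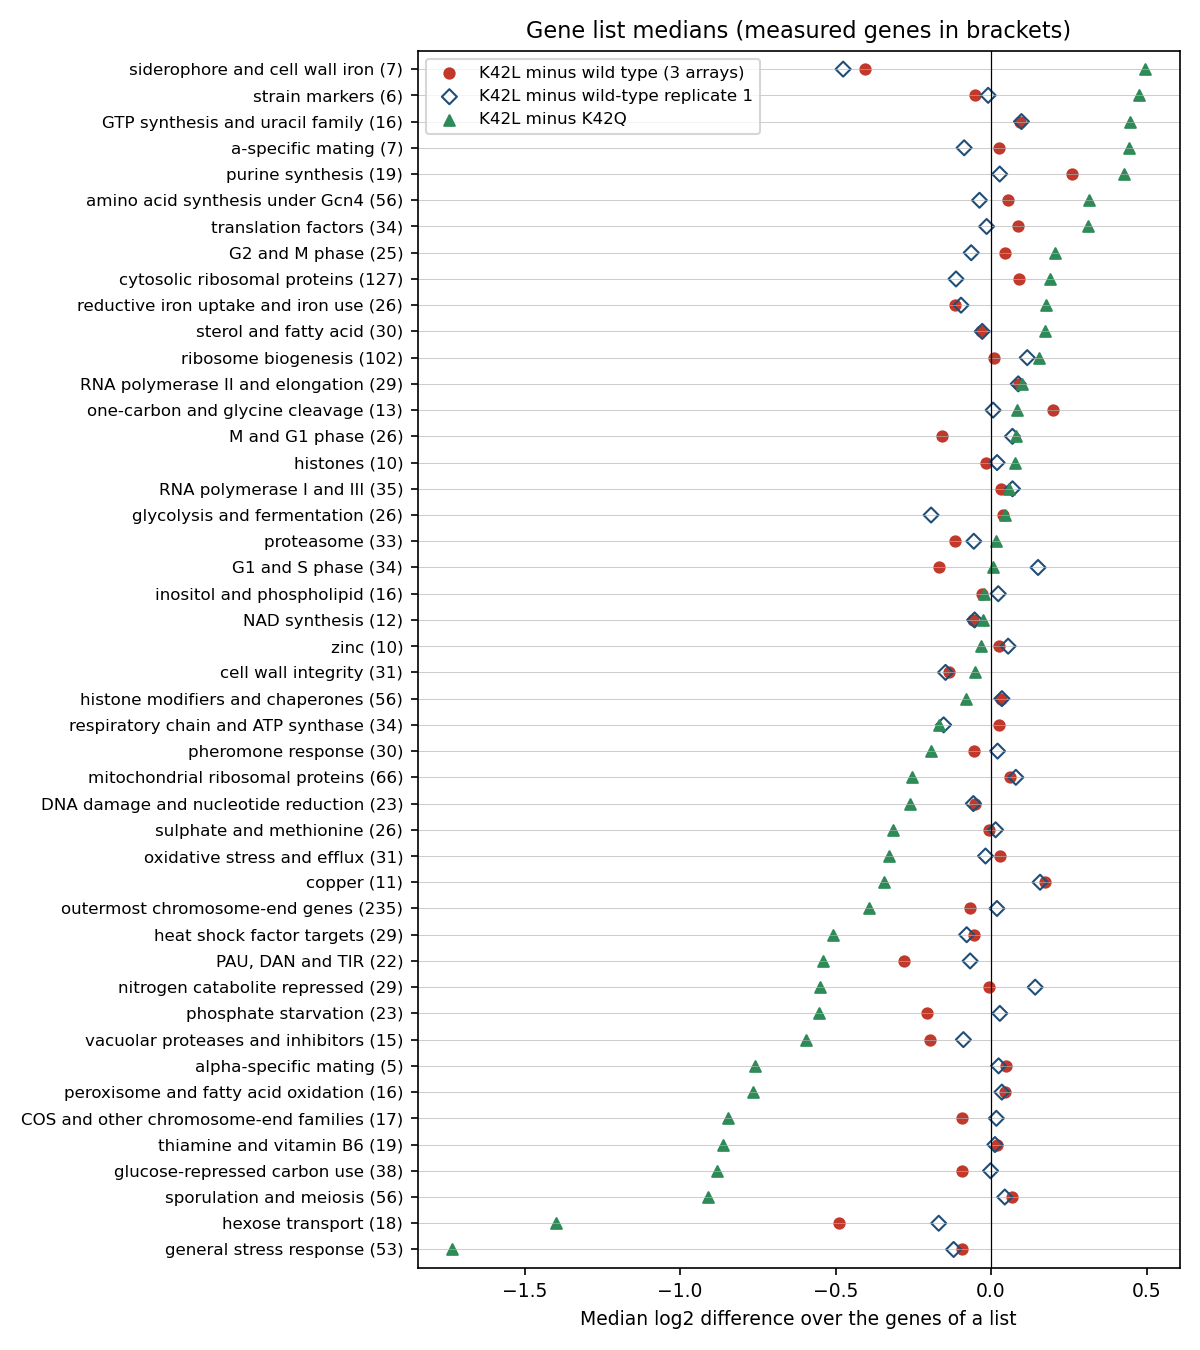
Median log2 difference over the measured genes of each of 46 gene lists: K42L minus all 3 wild-type arrays (red circles), K42L minus wild-type replicate 1 (open diamonds) and K42L minus K42Q (green triangles), ordered by the last. The comparisons with wild type run from -0.49 to 0.26, and the comparison with K42Q from -1.73 to 0.50.

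Most functional groups had medians close to that of all genes. Of 46 lists, 31 had no called member against all 3 wild-type arrays, and 33 had a median within 0.1 of 0 on the log2 scale. Among 127 cytosolic ribosomal protein genes limma called 0, with 2 higher and 0 lower at an unadjusted p under 0.05, and the median was 0.09, or -0.11 with the block, so that the sign depends on the wild-type arrays used. Ribosome biogenesis (102 genes) had a median of 0.01, or 0.12 with the block, with 0 called by limma and 14 higher and 3 lower at an unadjusted p under 0.05. The 33 proteasome genes had a narrow range of -0.22 to 0.15 and a median of -0.12, or -0.06 with the block, with 0 called and 4 lower at an unadjusted p under 0.05. For 17 of the 33 both K42L arrays lay below all wild-type arrays and for 1 above, beside 14.0% and 18.9% of all genes. At an unadjusted p under 0.05, 9.93% of all genes were higher and 8.02% lower. Amino acid synthesis under Gcn4 (56 genes) had a median of 0.05, or -0.04 with the block.

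Hexose transport had the lowest median of the lists, -0.49 over 18 genes, against -0.17 with the block. Limma called 0 of them, with 8 lower and 0 higher at an unadjusted p under 0.05, beside 8.02% and 9.93% of all genes. Without wild-type replicate 1 the median was -0.76, and 8 were called lower and 1 higher, where 807 and 870 of all 5449 genes were. HXT2, a high-affinity transporter, had 842.5 and 694 in K42L, against 757, 1329 and 1383 in wild type, and HXT3, a low-affinity one, had 2156 and 1922, against 2260, 1942 and 1952.5. Of the 22 PAU, DAN and TIR genes, wall mannoproteins of anaerobic and cold growth, PAU3 was called lower, and the median was -0.28, or -0.07 with the block.

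The uracil and GTP list of 16 genes held URA4 as its called member. URA1 had 1414 and 1382.5 in K42L, against 1065, 1092 and 1023 in wild type (0.40 ± 0.08, adjusted p = 0.0514; with the block 0.39, adjusted p = 0.0723). URA3 had 607 and 654 in K42L, against 526, 435.5 and 439 in wild type (0.44, adjusted p = 0.0858). Both K42L arrays lay above all wild-type arrays for 7 of the 16 and below them for 0, beside 18.9% and 14.0% of all genes.

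Calls were counted by position along the chromosomes. Among the 235 measured genes within 10 of a chromosome end, 5 were called higher (GTT2, FET4, BIO2, YHL042W and PAD1) and 3 lower (FIT1, PAU3 and DDI3), which is 8 of the 46 calls, beside 0.844% of all genes called. With the block 5 were called higher and 0 lower. The median of the 235 was -0.07, and 0.02 with the block. Medians of whole chromosomes ran from -0.04 on III to 0.05 on IX. By wild-type signal, the dimmest 1089 genes held 13 of the 25 increases and 4 of the 21 decreases, and its median was 0.06, against 0.01 in the brightest 1090.

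No histone gene passed the test. HHT2 (YNL031C), an H3 gene, had 1818 and 1783 in K42L, against 1739, 1633 and 1683 in wild type (0.10 ± 0.08, adjusted p = 0.541). A probe set does not read the codon exchanged, so this level does not check the labels. HHT1, the other H3 gene, was at 3.3 and 0.6 in K42L, against 1.0, 13.1 and 4.3 in wild type, and passed the background level on 1 wild-type array. HTA1, HTA2, HTB1, HTB2 and HHF1 had differences of -0.10 to 0.10, and HTZ1 and CSE4, for the variants H2A.Z and the centromeric H3, of -0.01 and -0.10. The probe sets of HTA2 and HHF1 are shared with similar sequences, and HHF2 was not among the measured genes. The linker histone gene HHO1 had 517 and 542 in K42L, against 517, 787 and 735 in wild type (-0.34, adjusted p = 0.316; block value 0.03). Limma called 0 of the 10 histone genes in either form. The actin gene ACT1 had a difference of 0.07 ± 0.12, or -0.14 ± 0.11 with the block.

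K42L was then set against K42Q, the other substitution on arrays of the low background level, to see where the 2 residues part. Here 1900 genes (34.9%) were called, 647 higher in K42L (11.9%) and 1253 lower (23.0%), of which 12 were at least 2-fold higher and 353 at least 2-fold lower. With quantile scaling the split was 951 higher and 754 lower, and with spike-in scaling it was 329 and 1911, while the median of all genes moved from -0.07 to 0.04 and -0.20. The comparison shares its K42L arrays with those above. Its spread is pooled over all 9 arrays, so wild-type arrays that differ from each other widen the SE, as for GTT2 and PHO84 below.

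Stress genes set the substitutions furthest apart. HSP12 had 213 and 190 in K42L, against 1804 and 1699 in K42Q, a difference of -3.12 ± 0.12 (adjusted p = 7.02e-07). TMA10, for a ribosome-associated protein, had 47.5 and 51.3 in K42L, against 646 and 473 in K42Q (-3.48 ± 0.24, adjusted p = 1.2e-05), and DDR2, a multistress gene, had 59.6 and 91.4, against 734 and 610 (-3.18 ± 0.22, adjusted p = 1.15e-05). In wild type these genes had 310 to 317, 49.1 to 83.8 and 78.4 to 117. Of the 53 general stress genes, 49 were called lower in K42L than in K42Q and 0 higher, beside 23.0% and 11.9% of all genes. In 51 of the 53 both K42L arrays lay below both K42Q arrays, as in 45.6% of all genes. The median was -1.73 and stayed between -1.86 and -1.44 over the scalings tried. EGO4 (YNR034W-A) had 57.5 and 59.4 in K42L, against 508 and 465 in K42Q (-3.06 ± 0.13).

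Against wild-type replicate 1, which both share, the medians of the general stress list were -0.12 in K42L and 1.60 in K42Q. In K42A, which the block sets against wild-type replicates 2 and 3, the median was 1.30. Other lists in which K42L lay below K42Q were sporulation and meiosis (35 of 56 called lower, median -0.91), glucose-repressed carbon use (29 of 38, median -0.88), hexose transport (13 of 18, median -1.40) and heat shock factor targets (18 of 29 lower and 1 higher, median -0.51). Mitochondrial ribosomal protein genes had 25 of 66 called lower, with a median of -0.25. These counts stand beside 23.0% of all genes called lower and 11.9% called higher.

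**Figure D3:**
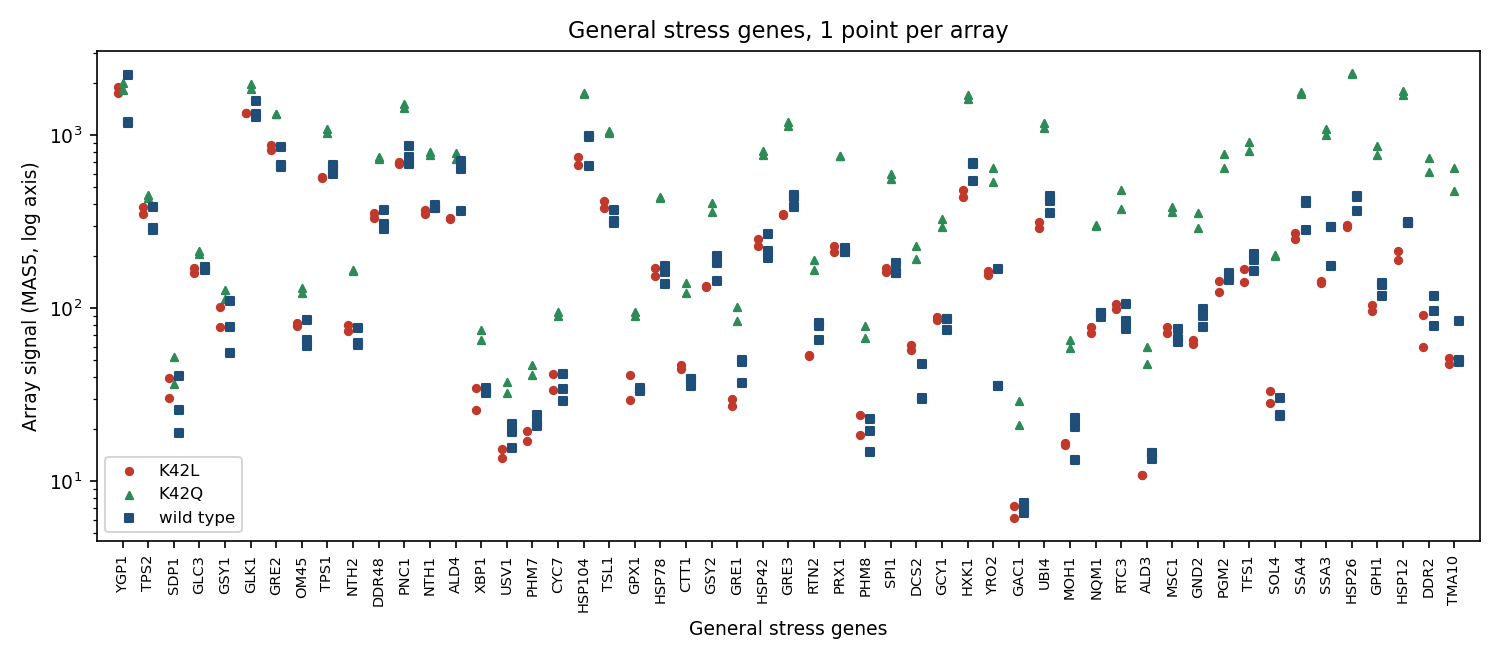
Signal (log axis) of each measured general stress gene on the K42L (red circles), K42Q (green triangles) and wild-type (blue squares) arrays, 1 point per array. In 51 of the 53 genes both K42L points lie below both K42Q points, and most K42L points lie among or near the wild-type ones.

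Siderophore genes and some growth genes were higher in K42L than in K42Q. ARN2 (YHL047C), a siderophore transporter, had 453 and 429 in K42L, against 200 and 192 in K42Q (1.17 ± 0.12, adjusted p = 0.000104), and 4 of the 7 siderophore and wall iron genes were called higher and 0 lower, with a median of 0.50. Of the 26 genes of reductive iron uptake and iron use 7 were called higher and 4 lower, with a median of 0.18. Over all genes 11.9% were called higher and 23.0% lower. FIT2, lower in K42L than in wild type, had 725 and 604.5 in K42Q and did not pass the test between the substitutions (0.16 ± 0.14, adjusted p = 0.402). RPS22B, for a protein of the small ribosomal subunit, had 988 and 969 in K42L, against 444 and 416.5 in K42Q (1.19 ± 0.10), and the RNA helicase gene DBP2 had 1081 and 1017, against 496 and 460 (1.13 ± 0.08).

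Of 102 ribosome biogenesis genes 31 were called higher and 0 lower, and of 127 cytosolic ribosomal protein genes 20 and 0, with medians of 0.16 and 0.19, beside 11.9% called higher and 23.0% lower among all genes. DAN1, a wall mannoprotein of anaerobic cells, had 1069 and 1118 in K42L, against 474 and 306 in K42Q (1.52 ± 0.21), and COS8 of the chromosome-end COS family had 83.3 and 98.6, against 45.3 and 35.9 (1.17 ± 0.18). HIS3 had the largest called increase, with 2905.5 and 2632 in K42L, against 1852 and 326 in K42Q (1.83 ± 0.58, adjusted p = 0.0336), and without K42Q replicate 2 it was 0.58. For PHO84 the wild-type signals of 41.6, 755.5 and 851.6 enter the pooled spread. PHO84 had 70.8 and 65.6 in K42L, against 690 and 655 in K42Q (-3.30 ± 1.13, adjusted p = 0.0455). Its adjusted p was above 0.05 when any of these 4 arrays was left out, at 0.141 to 0.167. YKR015C, at 0.5 and 2.8 in K42L, was under the background level there, against 9.9 and 11.6 in K42Q.

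Genes called against wild type did not all stand beyond K42Q. Of the 25 higher genes, 17 had both K42Q arrays above both K42L arrays, as did 45.6% of all genes. In 16 of the 25 both K42A arrays lay above both K42L arrays. The K42A arrays are of the higher background level, and the share of all genes with that order was not counted. K42L was called lower than K42Q in 14 of the 25 and higher in 5, beside 23.0% and 11.9% of all genes. Of the 21 lower genes, 1 had both K42Q arrays below both K42L arrays, an order likewise not counted over all genes. Among those 21, K42L was called lower than K42Q in 18 and higher in 0. The 25 and the 21 were picked by these same K42L arrays, which by itself pushes K42L up in the 25 and down in the 21. The full set of genes was not picked in this way, so these counts are descriptions only. APE1 had 610 and 621.5 in K42Q, TKL2 146 and 135, DAL1 111 and 109, and ZIP1 54.4 and 53.6, each above both K42L arrays. URA4, in contrast, had 537 and 550 in K42Q, below both K42L arrays (0.59 ± 0.08 between the substitutions, adjusted p = 0.00064). KDX1 had 129 and 113 in K42Q, CDA1 22.4 and 21.8, and BNA1 235 and 233, each above both K42L arrays and with called differences of -0.63, -1.35 and -0.60. GTT2, with 196 and 200 in K42Q, and HMS2, with 114 and 105.5, were above K42L without passing the test (-0.33 and -0.26, adjusted p = 0.253 and 0.281).

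None of the genes of mating type and of strain markers was called against all 3 wild-type arrays, and with the block MET17 was, as given above. STE2, the receptor of a cells, had 2021 and 1786 in K42L, against 2088, 1809 and 1838.5 in wild type, and the alpha factor gene MF(ALPHA)1 had 7.9 and 6.6, against 7.1, 10 and 4.8. LEU2 had 1744 and 1694 in K42L, against 1837, 1641 and 1640 in wild type. LYS2, at 4.6 and 6.8 in K42L, against 5.3, 14.3 and 17.4 in wild type, was close to the background level on every array. With 2 and 3 arrays, precision is limited by their number.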

How the data were processed

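RNA of 9 cultures was hybridised to 1-colour arrays, 1 array per culture. The deposited values are signal intensities on a linear scale, made by the authors with GCOS 1.4 and MAS5, per the submitters' processing notes. The mean of each array, trimmed by 2% at either end, was 150.06 to 150.08, so no further scaling was applied. Before taking log2, 126 zeros among 98352 values were replaced by 0.1, the lowest positive signal. Of 10928 probe sets, 5498 carried 1 S. cerevisiae gene in the platform annotation, 1747 another listed gene (used as background), 3517 none, and 166 were controls. The brightest probe set stood for each of 47 genes with several, which gave 5449 genes.

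Differences come from limma (version 3.58.1; R 4.3.3), fitted as a mean per group over all 9 arrays with an intensity trend and Benjamini-Hochberg adjustment over all 5449 genes, and again with the background level (2 classes) as a fixed term. The gene lists, written from general knowledge, the members and the block were chosen with earlier results of these data known, so list counts and medians are descriptions with no test. Named were the 12 largest increases and decreases among called genes whose arrays do not overlap, up to 8 each way called in both fits and 4 each way with the block alone, up to 3 called members of each list, histone and marker genes, 6 each way against K42Q, and the 5 genes each way that differed most between wild-type replicate 1 and the others. Chromosome ends are the 10 outermost annotated genes at each end, in the RefSeq order. In 20 simulated runs with 200 of 5449 genes changed, the first model recovered 70.3% of changes of 0.5 and 95% of changes of 1 on the log2 scale, with 8.5 false calls a run. The block model recovered 34.1% and 88.3%, with 7 false calls, and the comparison with K42Q 59.5% and 92.9%, with 7.55. The simulated noise was independent between genes. The simulated arrays held no shift between the background levels, and their spread came from the first model for every comparison. Alternatives were other scalings, filters, floors, spreads, arrays and blocks. Promoter motifs were not analysed here. Plots used matplotlib 3.10.9 (Python 3.11.15).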

Additional observations from a re-analysis of the deposited data

Results flagged for a closer look

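The 3517 probe sets with no listed gene entered no comparison above. Of them, 339 lay above the background level on both K42L arrays or on all 3 wild-type arrays. Limma called 3 of these 339 higher in K42L and 0 lower when the probe sets were fitted with the same model, beside 0.844% of all genes called above. The adjustment here ran over the 5449 genes and all 3517 probe sets together. Probe set 1773061_s_at had signals of 423.5 and 423.6 in K42L, against 218.4, 255 and 252 in wild type, a log2 difference of 0.81 ± 0.09 (SE, n = 2 against 3; adjusted p = 0.00817) and of 0.96 with the background level as a block (adjusted p = 0.00399). Probe set RPTR-Sc-AJ002682-2_s_at, a reporter sequence by its name, had 548.3 and 556.5 in K42L, against 385.3, 270.8 and 319.9 in wild type, a difference of 0.78 (adjusted p = 0.0397; block value 0.52, adjusted p = 0.128). Probe set 1778729_at had 47.1 and 47.2 in K42L, against 29.8, 28.4 and 28.5 in wild type, a difference of 0.71 (adjusted p = 0.043; block value 0.66, adjusted p = 0.109).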

How the results depend on the processing

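There were 1569 values of single named genes against wild type under another setting. Of these, 257 lost their call, 55 gained one with the sign kept, and 1257 were counted as unchanged. The 1257 include genes uncalled in the first form that changed sign, even where they were then called. PHO84 was such a gene, at -2.13 in the first form and 0.71 with the block. Of the genes called in the first form, 0 changed sign. Against wild type, the 25 higher and 21 lower genes became 13 higher without genes under the 25th percentile, 40 higher on the low background arrays alone, 0 and 2 on the compared groups alone, and 10 lower with spike-in scaling and the block. They became 8 lower with signals raised to the highest background, 8 lower without an intensity trend, 13 lower with the block, and 6 lower without wild-type replicates 2 and 3 together, a setting chosen after seeing the data. Leaving out 1 array gave 0 to 870 higher and 0 to 807 lower. With the block, the 30 and 13 became 11 and 6 under quantile scaling, 31 lower under median centring, 23 lower under cyclic loess and 13 and 6 without the dim genes. Raised signals gave 2 and 2, an added 16 gave 17 and 8, no trend gave 13 and 6, and leaving out 1 array gave 6 to 20 and 4 to 6. The 16 and 7 called in both became 7 and 4 (quantile), 15 lower (median), 26 higher (spike-in), 7 and 3 (no dim genes), 2 and 2 (raised signals), 4 lower (added 16), 8 and 4 (no trend), and 0 to 13 and 0 to 3 without 1 array. Against K42Q, the 647 and 1253 became 754 lower (quantile), 1033 higher (median), 329 and 1911 (spike-in), 682 lower (no dim genes), 1050 higher (compared groups alone), 1051 higher (low background arrays), 1057 higher (block), and 282 to 368 and 661 to 901 without 1 array. CYT1 against K42Q changed sign under quantile scaling, to 0.0237 (adjusted p = 0.891). Settings with fewer arrays or genes test less by construction, and for the others the cause was not tested.

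The replicate numbers were not treated as pairs. The deviations of K42L and wild-type replicates 1 and 2 correlated at 0.115 over 5277 genes, and those of K42L and K42Q at -0.221. Wild-type replicates 1 and 2 also differ in background level, so the former value cannot tell whether the numbers pair the samples. With the replicate block, 6 genes were called higher and 3 lower against wild type, 6 and 2 with the background block added, 4 and 1 in both, and 522 and 1094 against K42Q. Shares of promoter windows holding motifs were planned and not run. Arrays of 2 cultures and signals near background limit the dim genes most: of the dimmest 1089 genes, 917 lay above background on all 5 arrays.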
